A study of Mus musculus with 123 samples.

Results

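Described here are 13 single-embryo transcriptomes of a series that holds 110 others, the early inner cell masses (ICMs) of the Oct4 line whose mothers either lacked or kept Oct4. They were chosen by the group names of the samples: 8 early ICMs named Ctrl and 5 named Ctrl MWT, called MWT from here on. Oct4 is the protein of the gene Pou5f1. Ctrl embryos came from Pou5f1 flox/flox; Zp3-Cre females, in which Cre is made in the growing oocyte and removes all but the first Pou5f1 exon, so that the egg brings neither Oct4 nor a working allele, and they carried 1 intact allele from the father. MWT embryos came from females with the gene intact. The legend of the study's principal component plot gives them as flox/mKO2 or +/flox, a mixture of embryos that did or did not inherit the father's disrupted mKO2 allele. An MWT embryo thus has 1 or 2 working copies of the gene, and which embryo has which is not stated in the labels. The embryos of Pou5f1 KO groups, named below for their levels and for a comparison of early ICMs, carried the deleted maternal allele and the mKO2 allele. Ctrl and KO embryos thus carry the deleted allele and MWT embryos do not, and the loss of egg-stored Oct4 and the presence of the deleted allele cannot be told apart in this comparison. All embryos were of a B6C3F1 background, from superovulated females, and each library was made from 1 embryo, with the ICM freed of trophectoderm by immunosurgery.

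The labels of the groups do not match in 2 respects. Both are titled as early ICMs, but the source name of the MWT embryos reads morula of E2.75 where that of the Ctrl embryos reads early ICM of E3.75. Culture from E2.5 with 1 μM PD0325901, an inhibitor of the kinase MEK that holds back primitive endoderm, is entered for the Ctrl and not for the MWT early ICMs. The stage in the title was used, and the RNA was placed on a scale made from other embryos, the genes called between morula, early ICM and late ICM in Sox2-line Ctrl embryos. On the morula-to-early-ICM score (mean log2 level of 2468 rising genes minus that of 2005 falling genes) the MWT early ICMs lay between 0.0279 and 0.541 and the Ctrl early ICMs between 0.0297 and 0.416, while MWT morulae lay between -1.76 and -1.07. On the early-to-late score the MWT early ICMs lay between -2.15 and -0.864 and the Ctrl early ICMs between -2.11 and -0.543. The MWT libraries titled early ICM therefore overlapped the Ctrl early ICMs and lay apart from the morulae on the first score. The study's methods describe culture with the inhibitor for early and late ICM samples in general, without naming the MWT embryos, and the RNA was not used to settle the point. The summed level of 14 listed targets of MAPK signalling, the pathway that the inhibitor blocks, was 244 to 512 CPM (UMIs of a gene per 1000000 UMIs of the library) in MWT and 397 to 620 in Ctrl early ICMs.

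**Figure D1:**
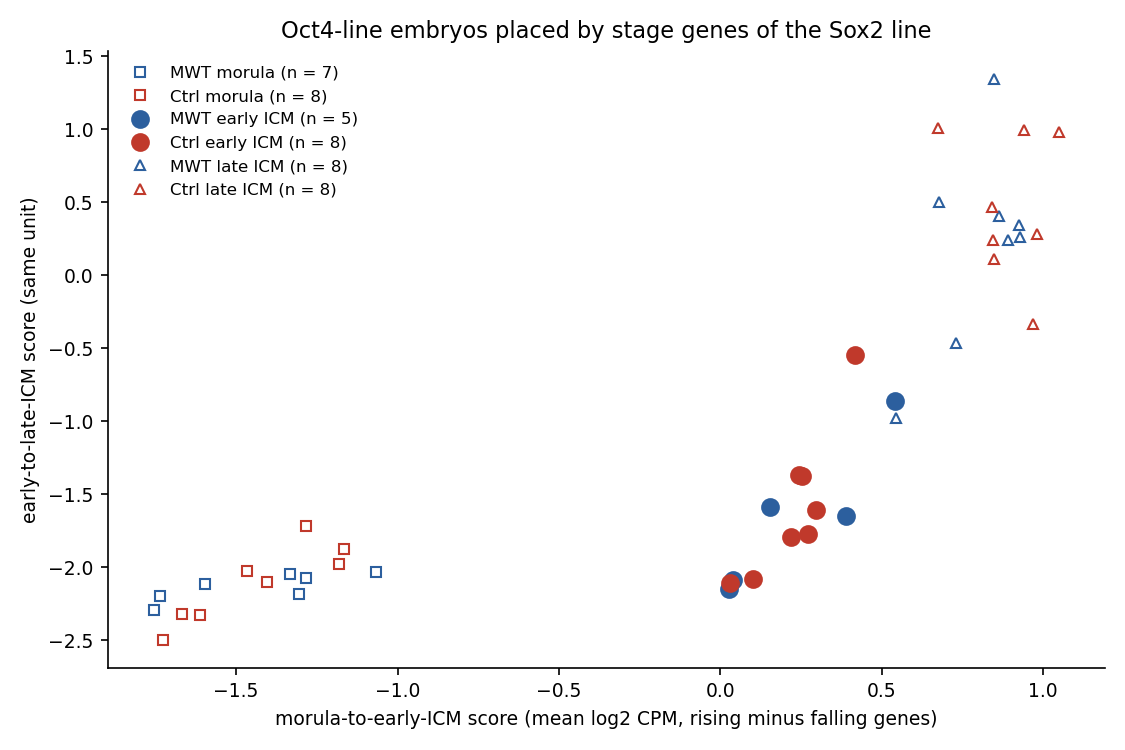
Each point is 1 Oct4-line embryo, placed by the morula-to-early-ICM score (horizontal) and the early-to-late-ICM score (vertical), both in mean log2 CPM of rising minus falling genes of the Sox2 line; blue is MWT, red is Ctrl, filled circles are early ICMs, open squares morulae and open triangles late ICMs. The 5 MWT and 8 Ctrl early ICMs share 1 cloud, with mean first scores of 0.23 and 0.229, to the right of every morula.

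Oct4 is a transcription factor of the POU family that binds DNA with Sox2 at composite sites and keeps the cells of the ICM pluripotent. The oocyte stores Oct4, and the embryo makes its own from the cleavage stages on. The choice between ICM and trophectoderm is carried by the Hippo pathway. In inner cells the kinases Lats1 and Lats2, with angiomotin proteins at cell contacts, keep coactivators Yap1 and Taz (gene Wwtr1) out of the nucleus. In outer cells these coactivators bind Tead factors and switch on trophectoderm genes.

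Levels are given as CPM, where a UMI is the tag that marks 1 captured molecule. Total UMIs were 841452 to 1082520 in MWT and 784645 to 938150 in Ctrl early ICMs, so 1 UMI is close to 1 CPM. The mean total was 852222 UMIs in Ctrl and 954295 in MWT (exact two-sided permutation p = 0.027972, the smallest possible being 0.001554), which did not pass without Ctrl 2 (p = 0.053), MWT 7 (p = 0.0848) or MWT 9 (p = 0.0828). Genes detected numbered 13575 to 13932 in MWT and 12886 to 13632 in Ctrl (exact p = 0.003885), and the difference was -315.2 genes after thinning all libraries to the same total (exact p = 0.03108). Mitochondrial transcripts took 4.30% to 6.76% of UMIs in MWT and 4.54% to 5.84% in Ctrl. The 25 listed trophectoderm markers summed to 934 to 1481 CPM in MWT and 960 to 2558 CPM in Ctrl embryos, with Ctrl 9 at 2558 and the next at 1486, against 2834 to 3955 in Ctrl morulae. The part of depth and of trophectoderm RNA in the results below was not tested beyond the values given with them.

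Pou5f1 itself (ENSMUSG00000024406, mm10 chr17:35506018-35510772, plus strand) was read first, since it checks the labels. Its level in MWT early ICMs was 29.0, 27.3, 90.5, 86.9 and 78.9 CPM in MWT 1, 3, 7, 8 and 9, and in Ctrl early ICMs it ran from 58.3 to 93.6 CPM with a median of 84.6. MWT 1 and MWT 3 lay below every Ctrl embryo, and the other 3 MWT embryos lay within the Ctrl range. The means were 62.5 ± 31.7 (SD, n = 5) and 80.6 ± 13.2 CPM (SD, n = 8), a log2 difference, Ctrl minus MWT, of 0.38 ± 0.24 (SE), with a 95% interval from -0.10 to 0.86 (edgeR adjusted p = 0.669; exact permutation p = 0.180264). KO early ICMs had 1.03 ± 1.6 CPM (SD, n = 8), so the assay reads the loss of the gene where both alleles are disrupted. No fall of Pou5f1 RNA was detected in Ctrl early ICMs. Counts of Pou5f1 could include reads of the antisense gene Gm19553, which overlaps it, because the use of strand in counting is not stated.

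A small set of genes differed between Ctrl and MWT early ICMs. Of 13923 genes tested, 52 passed an adjusted p under 0.05 and a log2 fold change of 1 or more in size, which is 0.373%. They were 26 genes higher in Ctrl (0.187%) and 26 genes lower (0.187%); 89 passed at any fold change, and 1326 (9.52%) had an unadjusted p under 0.05. The higher genes were better expressed: 25 of the 26 reached 20 CPM in the group where they were high, against 18 of the lower 26. Of the higher genes 25 are protein coding. The lower genes include 16 protein-coding genes and 8 lncRNAs (30.8%, where 6.65% of the genes tested are lncRNAs). All lncRNAs together took a mean of 1.16% of UMIs in MWT and 0.994% in Ctrl early ICMs, with MWT 7 at 0.896%. The part of this library difference in the lncRNA calls was not tested. In 23 of the 52 genes the groups did not overlap, 17 of them higher and 6 lower in Ctrl, where 0.79% of all genes tested had groups that did not overlap. MWT 7 lay inside the Ctrl range for 15 of the 26 lower genes, more than any other MWT embryo (0 to 4 genes). The count of called genes rested on the MWT embryos: it was 31, 29, 71, 30 and 23 without MWT 1, 3, 7, 8 and 9 in turn, and 24 (22 of the 52 among them) with all libraries thinned to the same total.

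**Figure D2:**
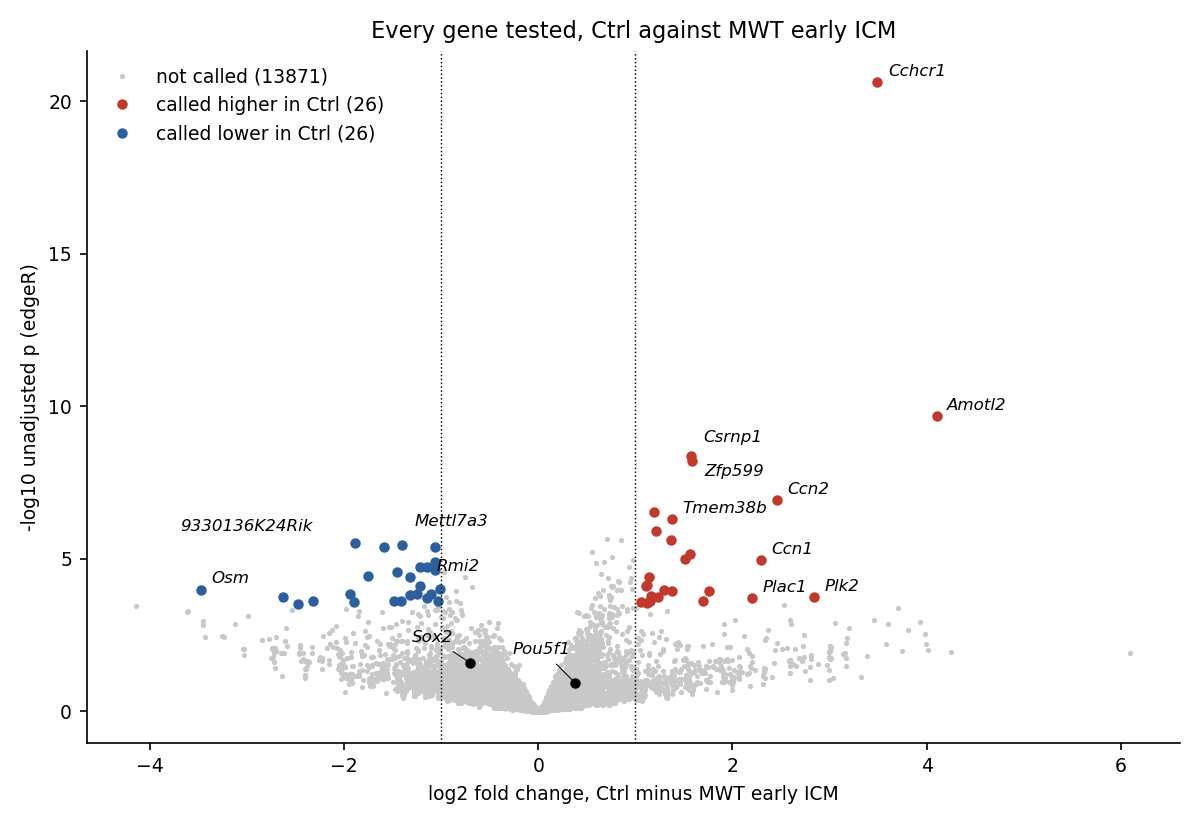
Every gene tested, with the log2 fold change (Ctrl minus MWT early ICM) on the horizontal axis and -log10 of the unadjusted edgeR p on the vertical axis; red and blue are the 26 genes called higher and the 26 called lower in Ctrl, grey the genes not called, black Pou5f1 and Sox2, and the dotted lines mark log2 changes of 1 and -1. Cchcr1 and Amotl2 stand farthest from the rest, while Pou5f1 (0.38) and Sox2 (-0.70) are not called.

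The lowest p was that of Cchcr1 (ENSMUSG00000040312, chr17:35517100-35531015, plus strand), the coiled-coil alpha-helical rod protein 1 gene, which encodes a centrosomal protein and starts 6328 bases beyond the 3′ end of Pou5f1. Cchcr1 stood at 13.4, 7.13, 2.77, 14.5 and 13.3 CPM in MWT 1, 3, 7, 8 and 9. In Ctrl embryos it ran from 61.2 to 185 CPM with a median of 114. Every Ctrl embryo was at least as high as 61.2 CPM, and no MWT embryo passed 14.5 CPM. The log2 fold change was 3.49 ± 0.30 (adjusted p = 3.28e-17), and the summed counts, 770 UMIs in Ctrl and 48 in MWT, gave a ratio of 11.2 (95% Poisson interval 8.38 to 15.4, counting error only). It remained called under each of 28 alternative settings.

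Cchcr1 was also higher in Ctrl than in MWT morulae (log2 3.24 ± 0.28, adjusted p = 3.62e-17) and late ICMs (4.24 ± 0.28, adjusted p = 1.69e-25). In the Sox2 line, where the maternal deletion lies in another gene, the same comparison of early ICMs gave 0.39 ± 0.35 (adjusted p = 0.56), and the lines differed by 3.10 (adjusted p = 2.35e-05). Mean Cchcr1 levels in the 3 KO groups of the Oct4 line were 53, 61.0 and 47.3 CPM in morulae, early ICMs and late ICMs, and the 7 Sox2-line groups had 6.57 to 9.71 CPM. High Cchcr1 was thus measured in every Oct4-line group that carries the deleted maternal allele, Ctrl or KO, and low Cchcr1 in the groups without it.

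Cchcr1 was the single called gene around Pou5f1. Of 79 genes within 500 kb, 50 were tested, of which 1 was called (0.373% over all genes) and 6 had an unadjusted p under 0.05 (9.52% over all genes); their median log2 fold change was -0.09, against -0.03 over all genes. Tcf19, which lies between Pou5f1 and Cchcr1 on the opposite strand, had 1.32 ± 1.58 CPM in Ctrl and 3.78 ± 1.42 in MWT (log2 -1.39 ± 0.64, adjusted p = 0.442). Psors1c2, the next gene after Cchcr1 on the same strand, had 19 UMIs over the Ctrl and 1 UMI over the MWT early ICMs, a ratio of 13.3 with an interval from 2.11 to 553 (log2 3.05 ± 0.93, adjusted p = 0.102). At the other stages of the Oct4 line Psors1c2 passed, with 3.26 ± 2.28 CPM in Ctrl and 0.152 ± 0.403 in MWT morulae (adjusted p = 0.0437) and 8.73 ± 4.97 and 0.559 ± 1.11 CPM in late ICMs (adjusted p = 0.000519). It also passed in the Sox2-line early ICMs, with 1.55 ± 1.67 CPM in Ctrl and 0 UMIs over the 7 MWT embryos, where a floor of 3 UMIs applies (adjusted p = 0.0255). Cdsn, farther on, had 10 and 3 UMIs (adjusted p = 0.742).

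**Figure D3:**
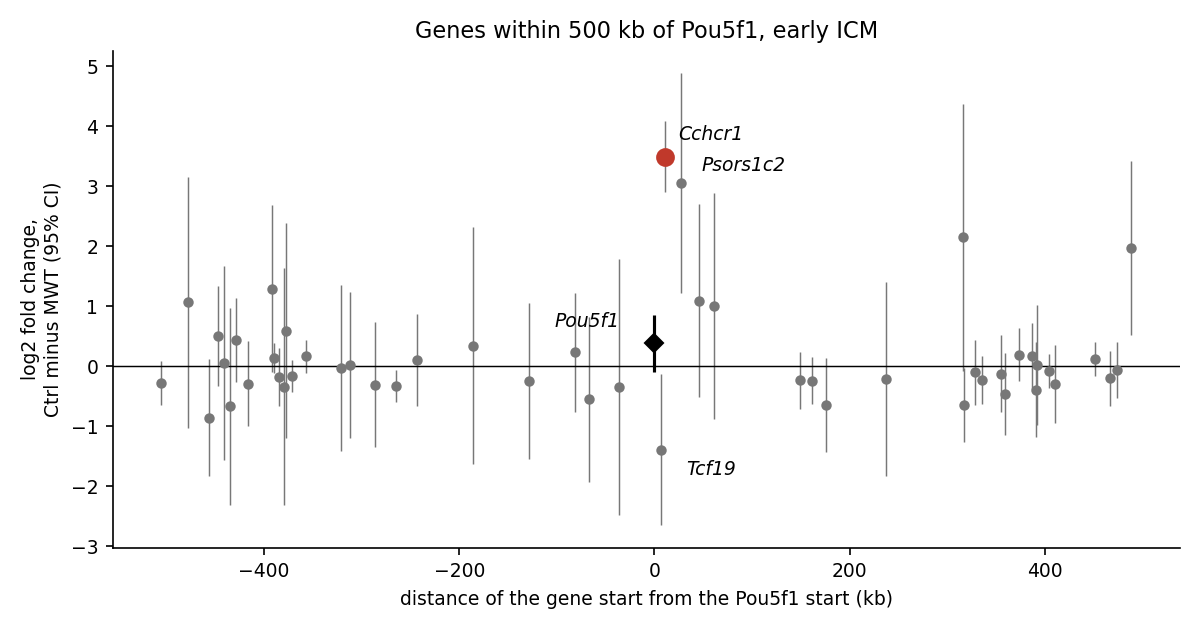
Log2 fold change (Ctrl minus MWT early ICM) with its 95% interval for the 50 tested genes within 500 kb of Pou5f1, against the distance of each gene's start from the Pou5f1 start in kb; the diamond is Pou5f1 and the red point Cchcr1. Cchcr1 is the 1 gene called, at 3.49, and its neighbours Psors1c2 (3.05) and Tcf19 (-1.39) did not pass.

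The promoter of Cchcr1 is shown because the gene changed at all 3 stages. RefSeq (GRCm38.p6) gives 2 starts for it, with windows of 250 bases before to 50 bases after the start at chr17:35516799-35517098 and chr17:35517003-35517302, plus strand, of which the first is printed. Neither window held the octamer ATGCAAAT bound by POU factors or the Tead-type motif CATTCC on either strand.
Cchcr1 promoter at the first start: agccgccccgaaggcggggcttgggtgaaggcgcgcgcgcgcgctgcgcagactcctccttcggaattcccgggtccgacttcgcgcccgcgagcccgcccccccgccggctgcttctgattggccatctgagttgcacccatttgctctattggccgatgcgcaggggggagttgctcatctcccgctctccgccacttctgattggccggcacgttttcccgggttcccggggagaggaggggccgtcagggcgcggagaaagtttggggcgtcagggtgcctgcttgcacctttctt
The octamer, read on either strand as ATGCAAAT or ATTTGCAT, was present in 1.74% of 32851 promoters of this length and in 1.97% of 27025 genes, and in 1 of 20 higher and 0 of 11 lower called genes with a promoter in the table.

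Several of the higher genes are known targets of Yap1 and Taz. Of the 26 higher genes, 4 (Amotl2, Ccn2, Ccn1 and Lats2) belong to a published 22-gene signature of these coactivators, a list that was added after the calls were seen. Of the 22 genes, 13 were tested, of which 4 were called higher and 0 lower in Ctrl (0.187% of all genes tested were called in each direction), and 11 had a positive log2 fold change; the median was 1.37 (1.22 without Foxf2, which had at most 3 UMIs in each group), against -0.03 over all genes. Since the calls prompted the list and the median includes them, neither is independent evidence. The 2 negative members were Gadd45a (-1.0, adjusted p = 0.46) and Crim1 (-0.75, adjusted p = 0.85). The 9 members not tested, Ankrd1, Axl, Igfbp3, Fjx1, Ccdc80, Ptpn14, Nuak2, Tgfb2 and Rbms3, were detected in too few embryos.

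Amotl2 (ENSMUSG00000032531, chr9:102716672-102733418, plus strand) encodes an angiomotin that holds Yap1 at cell junctions and is itself a Yap1 target. Its level was 3.34, 5.94, 3.70, 5.57 and 1.90 CPM in MWT 1, 3, 7, 8 and 9, and 36.8 to 103 CPM in Ctrl embryos with a median of 67.4. The groups were separated by a wide gap, from 5.94 to 36.8 CPM. The log2 fold change was 4.10 ± 0.59 (adjusted p = 1.46e-06), and the 477 and 19 UMIs gave a ratio of 17.6 (interval 11.1 to 29.4). Among the 16 groups of the series the lowest mean of Amotl2 was that of the MWT early ICMs, 4.09 CPM. It averaged 53.9 ± 21.3 CPM in MWT morulae (n = 7), 53.2 ± 33.9 in MWT late ICMs (n = 8) and 41.1 ± 29.0 in the Sox2-line MWT early ICMs (n = 7), and 81.6 ± 22.9 in Pou5f1 KO early ICMs (n = 8). The difference between Ctrl and MWT was 4.06 larger in early ICMs than in morulae (adjusted p = 0.000159), and 3.55 larger than in the Sox2 line (adjusted p = 0.00248). Relative to late ICMs, where Ctrl minus MWT was 1.18 (adjusted p = 0.064), the difference was 2.92 larger and did not pass (adjusted p = 0.0899).

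Ccn2 and Ccn1 (formerly Ctgf and Cyr61) encode secreted matricellular proteins and are the usual reporters of Yap1 activity. Ccn2 (ENSMUSG00000019997) stood at 12.3, 87.9, 72.1, 64.6 and 88.4 CPM in MWT 1, 3, 7, 8 and 9 and at 225 to 436 CPM in Ctrl embryos, with a median of 366. Its groups did not overlap, and the log2 fold change was 2.46 ± 0.44 (adjusted p = 0.000321). Ccn1 (ENSMUSG00000028195) stood at 7.80, 39.2, 24.0, 15.6 and 9.50 CPM in the same MWT embryos and at 39.1 to 166 CPM in Ctrl embryos, with a median of 82.7. Its groups touched, since MWT 3 was as high as Ctrl 1, and the log2 fold change was 2.29 ± 0.50 (adjusted p = 0.00749). The Ccn1 call was lost without MWT 9 (adjusted p = 0.0519).

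Lats2 (ENSMUSG00000021959), a Hippo kinase that is also induced by Yap1 as feedback, had the lowest levels of the 4 in Ctrl embryos. It stood at 8.91, 11.9, 4.62, 6.69 and 10.5 CPM in MWT 1, 3, 7, 8 and 9 and at 13.8 to 30.6 CPM in Ctrl embryos, with a median of 19.4. The groups did not overlap, and the log2 fold change was 1.37 ± 0.34 (adjusted p = 0.0276). Its call was not stable: it was lost without Ctrl 2, 4 or 7 or without MWT 1, 7, 8 or 9 (adjusted p up to 0.104).

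Besides Lats2 and Amotl2, which act in the Hippo pathway themselves and were described with the targets, other components of the pathway were measured. Of 19 such components, listed after the calls were seen and without Lats2 and Amotl2, 0 passed in the edgeR test (0.373% over all genes). Lats2 and Amotl2, both called, were left out with the calls known, so the count of 0 does not describe the whole pathway. Of the 19 components 3 had an unadjusted p under 0.05 (9.52% over all genes). The median log2 fold change of the 19 was 0.01 (-0.02 without Amotl1, which had at most 3 UMIs in each group). Yap1 had 203 ± 32.3 CPM in Ctrl and 188 ± 16.5 in MWT early ICMs (0.14 ± 0.14, adjusted p = 0.852) and Wwtr1 179 ± 37.6 and 172 ± 49.9 (0.09 ± 0.23, adjusted p = 0.966). Phosphorylation and location of these proteins, which set their activity, are not seen in RNA. Of the trophectoderm factors that lie downstream of Yap1, Cdx2 had 14.8 ± 10.6 and 15.3 ± 9.02 CPM (0.01 ± 0.44, adjusted p = 1), and Gata3 85.1 ± 61.0 and 36.9 ± 32.5 CPM (1.28 ± 0.49, adjusted p = 0.285). Over the whole trophectoderm list, which is described with the other lists, 19 of 23 genes were positive, 7 had an unadjusted p under 0.05 and Plac1 was called higher. Without Ctrl 9 and MWT 1, the embryos with most trophectoderm marker RNA of each group (an alternative chosen after the data were seen), Amotl2 (3.93, adjusted p = 0.000155) and Ccn2 (2.13, adjusted p = 0.012) remained called, while Ccn1 (1.90, adjusted p = 0.101) and Lats2 (1.43, adjusted p = 0.0725) did not pass with 2 fewer embryos.

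**Figure D4:**
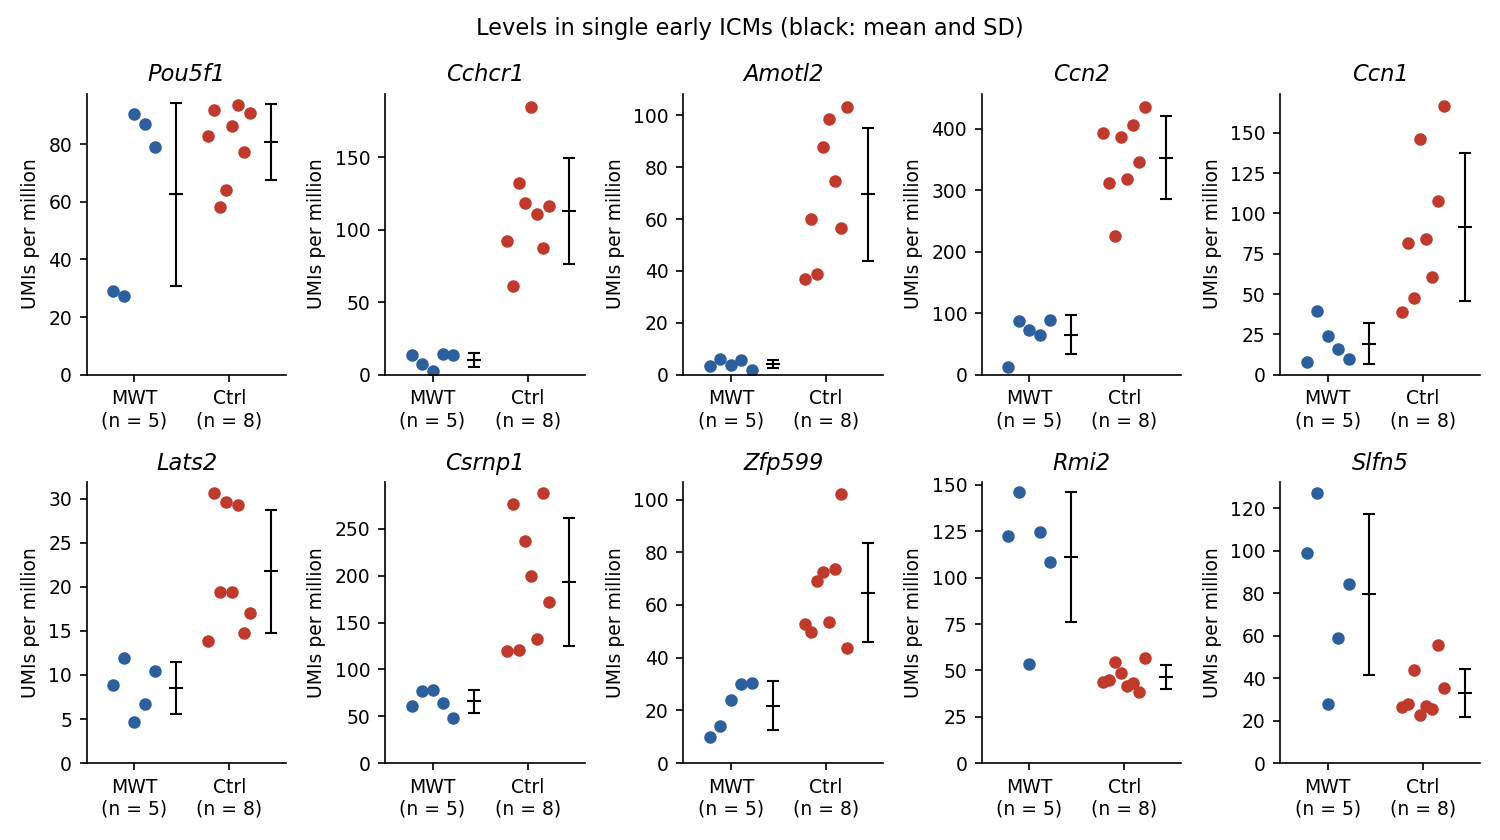
CPM of 10 genes in single early ICMs, 5 MWT (blue) and 8 Ctrl (red), in the order of their replicate numbers, with the mean and SD in black; each axis starts at 0. Cchcr1, Amotl2, Ccn2, Lats2, Csrnp1 and Zfp599 show no overlap of the groups, Ccn1 overlaps at 1 point, MWT 7 falls among the Ctrl embryos for Rmi2 and Slfn5, and 2 MWT embryos are low in Pou5f1.

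Tead factors recruit Yap1 and Taz to DNA at sites with the core CATTCC, read on either strand as CATTCC or GGAATG. It was searched in the RefSeq promoters (GRCm38.p6, 250 bases before to 50 after each start), which were found for 20 of the higher and 11 of the lower called genes. A match was present for 6 of the 20 higher genes (30%; Amotl2, Ccn1, Zfp791, Csrnp1, Lats2 and Sap30) and 2 of the 11 lower genes (18.2%), against 16.6% of 27025 genes and 14.7% of all promoters. The promoters of Ccn2, Rmi2 and Zfp599 were not used here. Matches of the 3 Yap1 targets are printed with the surrounding 60 bases, in the direction of the gene, with the motif in capitals. They begin 65 bases before the start in Amotl2 (chr9:102717712-102717771, plus strand), 103 bases before the start in Ccn1 (chr3:145650056-145650115, minus strand) and 4 bases after the start in Lats2 (chr14:57746087-57746146, minus strand). Such a match is a run of letters, and binding there was not measured. The match lies in the window of 1 of 4 annotated starts in Csrnp1 and of 1 of 2 in Lats2. Which start was used in these embryos was not measured.
Amotl2: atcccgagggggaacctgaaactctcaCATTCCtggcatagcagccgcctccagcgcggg
Ccn1: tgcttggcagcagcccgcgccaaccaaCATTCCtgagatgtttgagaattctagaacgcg
Lats2: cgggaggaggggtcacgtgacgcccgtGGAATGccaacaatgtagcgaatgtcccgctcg

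Csrnp1, Pim3 and Plk2 were higher in Ctrl as well. Csrnp1 (ENSMUSG00000032515), an axin-induced nuclear protein that acts as an immediate-early transcriptional activator, stood at 61.3, 77.2, 78.5, 64.6 and 48.5 CPM in MWT 1, 3, 7, 8 and 9 and at 119.6 to 288 CPM in Ctrl embryos, with a median of 185. Its groups did not overlap, and the log2 fold change was 1.57 ± 0.25 (adjusted p = 1.99e-05). The annotated genes 1700019L13Rik and Cx3cr1 overlap it. Pim3, a serine/threonine kinase that promotes survival, was higher by 1.12 ± 0.27 (adjusted p = 0.0237; 60.1 ± 12.2 against 28.1 ± 6.05 CPM). These are the 2 called members of 20 tested immediate-early genes, a list added after the calls were seen (0.187% of all genes were called higher). Of the 20 genes 7 had an unadjusted p under 0.05, against 9.52% of all genes, and their median was 0.64 (0.49 with genes at 0 UMIs in a group at their bound or left out). Plk2, a polo-like kinase that is also a p53 target, stood at 10.5 to 90.7 CPM in Ctrl and 0 to 7.60 CPM in MWT embryos (2.84 ± 0.74, adjusted p = 0.0353), and was lost without Ctrl 2, 3 or 8 or MWT 1, 3, 8 or 9 (adjusted p up to 0.121).

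Further higher genes have roles in the nucleus, the cell cortex and metabolism. Zfp599, a KRAB-type zinc finger gene, stood at 10.0, 14.3, 24.0, 30.1 and 30.4 CPM in MWT 1, 3, 7, 8 and 9 and at 43.7 to 102 CPM in Ctrl embryos (1.58 ± 0.25, adjusted p = 2.15e-05). Of 318 tested genes named Zfp with a number, a list added after the calls were seen, 4 were called higher (Zfp599, Zfp791, Zfp715 and Zfp367) and 0 lower, where 0.187% of all genes were called in each direction, and their median was 0.06. Epb41l5, a FERM-domain protein of epithelial polarity and adhesion, was higher by 1.56 ± 0.33 (adjusted p = 0.00555; 48.0 ± 12 against 16.7 ± 6.28 CPM). Ppm1k, the mitochondrial phosphatase that activates branched-chain amino acid breakdown, was higher by 1.51 ± 0.33 (adjusted p = 0.00749), and Tmem38b, a potassium channel of the endoplasmic reticulum, by 1.38 ± 0.26 (adjusted p = 0.00101). The groups of these 4 genes did not overlap. With all libraries thinned to the same total 12 of the 22 named called genes kept their call, and Ppm1k, Epb41l5, Lats2, Plac1, Zfp791, Capn1, Slfn5, Mettl7a3, Aldh1a3 and Cyp2e1 did not. Epb41l5 overlaps the annotated gene Gm37219.

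The calls of 3 named genes rested on few embryos or on some settings. Sap30, a subunit of the Sin3 deacetylase complex, had 51.6 ± 19.7 CPM in Ctrl and 21.5 ± 9.00 in MWT (1.30 ± 0.32, adjusted p = 0.0274), and was lost without Ctrl 4, 8 or 9 or MWT 1, 8 or 9 (adjusted p up to 0.148). Plac1, an X-linked gene of the placental lineage, ran from 4.60 to 48.0 CPM in Ctrl and from 1.11 to 8.31 in MWT embryos (2.20 ± 0.57, adjusted p = 0.036); the highest was Ctrl 9, and the call was lost without Ctrl 3, 4, 6 or 9 or MWT 1, 3, 8 or 9 (adjusted p up to 0.154). Zfp791 ran from 5.33 to 43.3 CPM in Ctrl and from 2.38 to 15.6 in MWT embryos (1.75 ± 0.44, adjusted p = 0.0279) and was lost without Ctrl 2 or 7 or MWT 3, 8 or 9 (adjusted p up to 0.126).

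None of the lists held a gene called lower in Ctrl, and the lower genes are described singly. Rmi2, a subunit of the complex that dissolves recombination intermediates with the Bloom helicase, stood at 122.6, 146, 53.6, 125 and 108 CPM in MWT 1, 3, 7, 8 and 9 and at 38.5 to 56.5 CPM in Ctrl embryos. All but MWT 7 lay above every Ctrl embryo. The log2 fold change was -1.22 ± 0.27 (adjusted p = 0.00979), and the call was lost without MWT 3 (adjusted p = 0.0645). Slfn5, a member of the interferon-regulated Schlafen family, stood at 99.2, 127, 27.7, 59.1 and 84.6 CPM in the same MWT embryos and at 22.5 to 55.6 CPM in Ctrl embryos (-1.22 ± 0.30, adjusted p = 0.0246). It was lost without Ctrl 4 or MWT 1, 3 or 9 (adjusted p up to 0.157), and its antisense gene Slfn5os overlaps it.

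Capn1, the catalytic subunit of a calcium-dependent protease, was lower in every Ctrl than in any MWT embryo, at 15.2 to 27.6 against 29.7 to 51.3 CPM. Its log2 fold change of -1.06 ± 0.23 (adjusted p = 0.00754) fell under the fold minimum without MWT 7 (-0.99) and with depth as a covariate, and the call was also lost with all libraries thinned to the same total (-0.90, adjusted p = 0.135). Sfi1, a centrin-binding centrosomal protein whose gene overlaps Drg1, stood at 9.20 to 32.0 CPM in Ctrl and at 37.1 to 73.7 CPM in MWT embryos, also without overlap (-1.32 ± 0.31, adjusted p = 0.0158), and was lost without MWT 3 or 8 (adjusted p up to 0.0707). Mettl7a3, a methyltransferase-like gene whose near-identical family members make its counts uncertain, had 17.8 ± 6.59 CPM in Ctrl and 48.9 ± 26.9 in MWT (-1.41 ± 0.29, adjusted p = 0.00374) and was lost without MWT 3 (adjusted p = 0.0945).

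Aldh1a3 and Cyp2e1 were lower with calls that depended on many embryos. Aldh1a3, which makes retinoic acid, had 10.4 ± 3.65 CPM in Ctrl and 29.0 ± 17.1 in MWT (-1.42 ± 0.37, adjusted p = 0.0418), and 10 of the 13 embryos each ended the call when left out (all but Ctrl 4, MWT 7 and MWT 9; adjusted p up to 0.254). Cyp2e1, a cytochrome P450, had 12 ± 3.86 and 29.7 ± 15.5 CPM (-1.25 ± 0.32, adjusted p = 0.0323) and was lost without Ctrl 2, 4, 6 or 7 or MWT 1, 3 or 9 (adjusted p up to 0.261). Osm, the cytokine oncostatin M, is outside the rule for named genes and was picked after its values were seen. It had 1 UMI over the 8 Ctrl and 15 UMIs over the 5 MWT embryos, a ratio of 0.0467 (interval 0.00111 to 0.303; -3.47 ± 0.86, adjusted p = 0.0274), lost without Ctrl 2, 6 or 9 or MWT 8 or 9 (adjusted p up to 0.204). Below the fold minimum, Dcaf17 (-0.75), Dlgap4 (-0.69), Nle1 (-0.85), Opa3 (-0.85) and Rnf34 (-0.80), named to fill the rule, had adjusted p values from 0.0158 to 0.0434.

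Pluripotency factors were not called. Of 16 tested naive pluripotency factors 0 were called by edgeR, 6 had an unadjusted p under 0.05 (9.52% over all genes), 12 were positive (46.5% over all genes), and the median log2 fold change was 0.13. Sox2, the partner of Oct4, stood at 139, 297, 263, 228 and 169 CPM in MWT 1, 3, 7, 8 and 9 and at 85.1 to 189.8 CPM in Ctrl embryos. The groups overlapped, and the log2 fold change was -0.70 ± 0.31 (interval -1.32 to -0.09, adjusted p = 0.409). Nanog had 773 ± 182 CPM in Ctrl and 944 ± 271 in MWT (-0.26 ± 0.27, adjusted p = 0.852), and Klf4 646 ± 185 and 581 ± 274 (0.18 ± 0.28, adjusted p = 0.922). Nearest to the threshold were Tbx3, at 268 ± 58.8 against 163 ± 24.8 CPM (0.74 ± 0.20, adjusted p = 0.0512), and Klf5, at 1246 ± 138 against 806 ± 82.3 CPM (0.65 ± 0.19, adjusted p = 0.0686). Every Klf5 value in Ctrl was above every value in MWT.

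Other lists held at most 1 call each. Of 18 tested epiblast genes Sap30 was called (3 unadjusted), with a median of 0.16; Tdgf1, the Nodal coreceptor that had 297 ± 137 CPM in Ctrl and 332 ± 192 in MWT, had a log2 difference of -0.13 ± 0.32 (adjusted p = 0.963). Of 23 trophectoderm genes Plac1 was called higher (0.187% over all genes), 7 had an unadjusted p under 0.05 (9.52%), 19 were positive (46.5%), and the median was 0.65. Of 17 primitive endoderm genes 0 were called by edgeR (1 unadjusted), with a median of 0.03. Of 13 MAPK targets 0 were called (3 unadjusted), with a median of 0.43, and Dusp6, the phosphatase that feeds back on ERK, had 25.6 ± 17.6 CPM in Ctrl and 6.61 ± 7.87 in MWT (2.02 ± 0.60, adjusted p = 0.085). It passed without MWT 3, the MWT embryo highest for it (adjusted p = 0.04), and by DESeq2. Of 15 p53 targets Plk2 was called (3 unadjusted), with a median of 0.43.

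Oocyte, metabolic and POU-family genes gave no call, where over all genes 0.373% were called and 9.52% had an unadjusted p under 0.05. Of 22 tested maternal-effect and oocyte genes 0 were called by edgeR (2 unadjusted), with a median of 0.03, among them Khdc3 of the subcortical maternal complex (0.05 ± 0.18, adjusted p = 0.98) and Dppa3, an oocyte and germ-line protein (-0.16 ± 0.18, adjusted p = 0.864). Of 8 metabolic genes that the study ties to Oct4, 0 were called (1 unadjusted), with a median of 0.36. Ldha, lactate dehydrogenase, stood at 2.23, 9.51, 46.2, 59.1 and 49.4 CPM in MWT 1, 3, 7, 8 and 9 and at 2.43 to 28.5 CPM in Ctrl embryos (-1.35 ± 0.56, adjusted p = 0.356). The 2 MWT embryos low in Ldha are those low in Pou5f1. Of 7 tested POU-family genes besides Pou5f1 0 were called (2 unadjusted), with a median of -0.83 (-0.85 with genes at 0 UMIs in a group at their bound or left out); Pou3f3 had 0 UMIs in the 8 Ctrl embryos (a floor of 3 UMIs over the group) and 1.43 ± 0.885 CPM in MWT (adjusted p = 0.182). The remaining lists, later epiblast (5 genes tested), genes of the 2-cell stage (3), glycolysis (17), mitochondrially encoded (13), integrated stress response (15), endoplasmic reticulum chaperones (15), heat shock (10), imprinted (16), DNA methylation enzymes (9), Polycomb repressive complex 2 (12), cholesterol synthesis (22), cumulus cell markers (2) and Y-linked genes (4), held 0 calls, with 12 unadjusted p values under 0.05 over their 143 tested genes. Cbx2, a subunit of the other Polycomb complex that is on none of the lists and was picked after its values were seen, was lower in Ctrl, at 2.45 ± 1.63 against 9.90 ± 7.23 CPM (-1.89 ± 0.50, adjusted p = 0.0422). The cumulus markers summed to 3.34 to 12 CPM in MWT and 3.40 to 9.49 CPM in Ctrl embryos.

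The comparison was set beside the same one at the other stages, which use other embryos. The late ICM labels do not match either, since the source name reads E3.75 early ICM for the MWT and E4.5 late ICM for the Ctrl embryos titled late ICM. On the early-to-late score these MWT embryos lay between -0.979 and 1.34 and the Ctrl embryos between -0.331 and 1.01, so that the groups overlapped. In morulae 9 genes (0.0646%) and in late ICMs 111 genes (0.797%) were called between Ctrl and MWT. The difference itself was tested: 83 genes (0.596%) differed between the early ICM and the morula comparison, and 1 gene (0.00718%) between the early and the late ICM comparison. The latter is Gm28438, which was not called in early ICMs. Of the 26 genes higher in early ICMs, 26 were also positive in late ICMs, 4 of them called (Cchcr1, Ccn2, Ccn1 and Ppm1k). The median of the 26 was 0.58 in late ICMs against 1.38 in early ICMs. Since the genes were chosen by their size in early ICMs, a higher median there follows from the choice. In morulae 9 of the 26 were positive, and 13 differed from early ICMs by the test, among them Amotl2, Ccn2, Csrnp1, Zfp599, Lats2, Epb41l5 and Ppm1k. Of the 26 lower genes 22 were negative in late ICMs, 0 of them called, and 3 in morulae, where 17 differed by the test.

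Of the lower genes 1 was called in the opposite direction at the morula stage. This was the lncRNA 9330136K24Rik, which is outside the rule for named genes and was -1.88 ± 0.38 in early ICMs (adjusted p = 0.00356) and 2.05 ± 0.43 in morulae (adjusted p = 0.0145), a difference of -3.94 (adjusted p = 6.7e-06). Rmi2 and Slfn5 did not pass in morulae. Rmi2 had 0.93 ± 0.28 in morulae (adjusted p = 0.194), and the early ICM difference was -2.15 relative to it (adjusted p = 0.000307). Slfn5 had 0.88 ± 0.28 in morulae (adjusted p = 0.239), with a difference of -2.10 (adjusted p = 0.00103). Rmi2 averaged 25.4 CPM in MWT morulae, 111 in MWT early ICMs and 50.8 in MWT late ICMs, while its Ctrl means were 49.4, 46.4 and 28.4 CPM. The change of MWT levels between stages was not tested. Of the 52 called genes 11 (21.2%) also change from morula to early ICM in the Sox2 line, as do 32.1% of the genes tested.

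**Figure D5:**
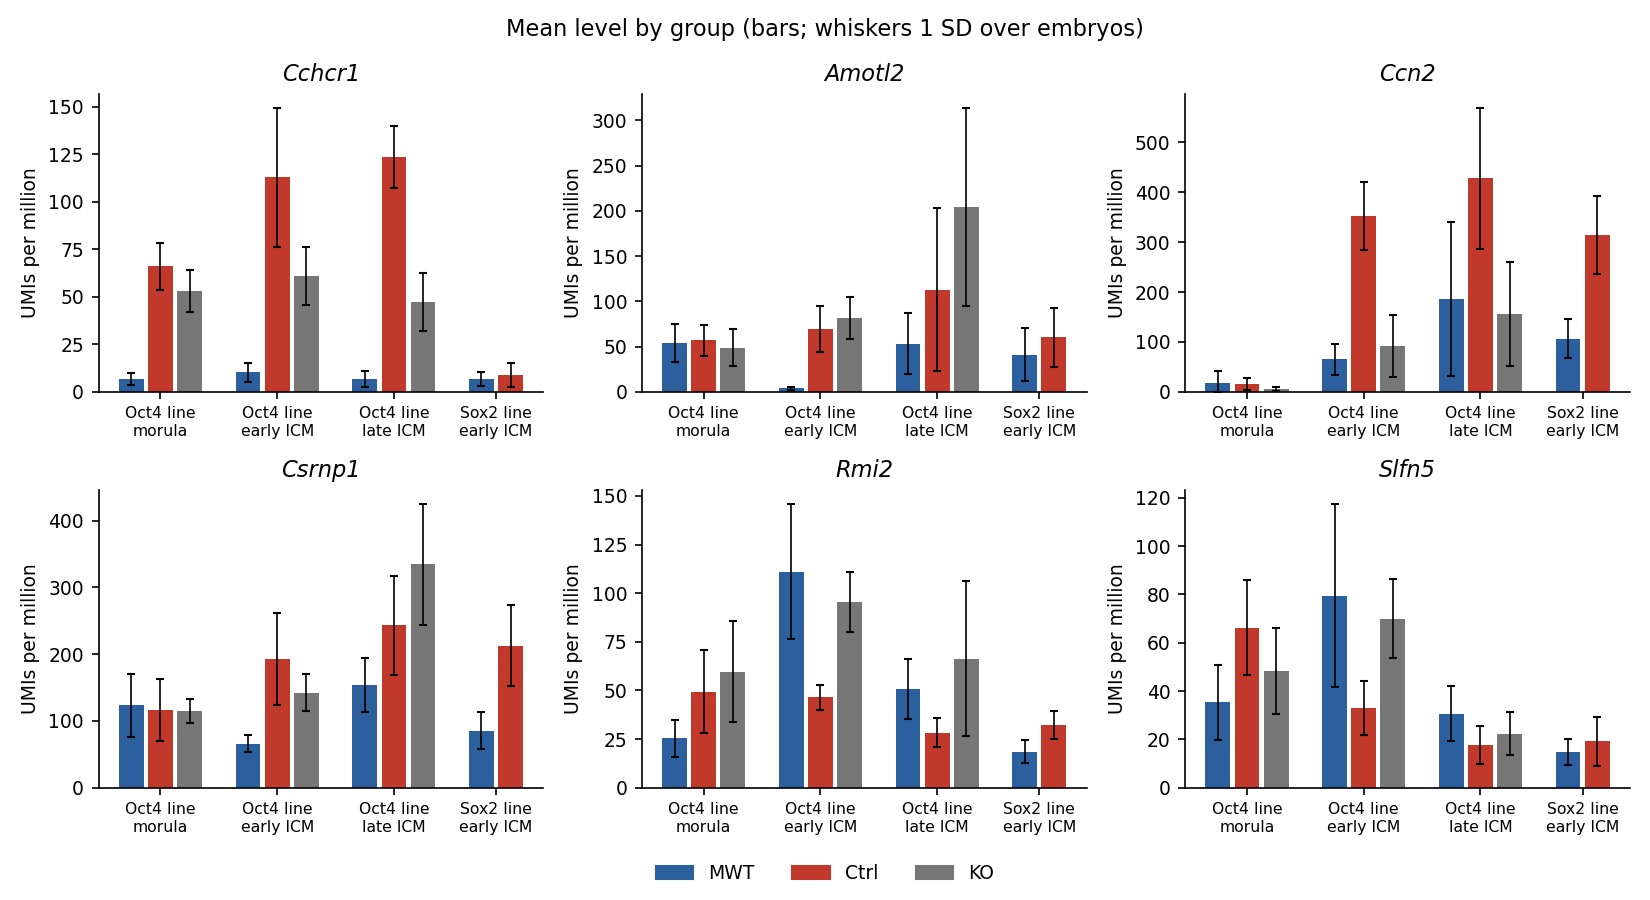
Mean CPM (bars) with 1 SD over embryos (whiskers, cut off at 0) of 6 genes by genotype in Oct4-line morulae, early ICMs and late ICMs and in Sox2-line early ICMs; blue is MWT, red Ctrl and grey KO, with 5 to 8 embryos a bar. Cchcr1 is high in every Ctrl and KO group of the Oct4 line, Amotl2 is low in the MWT early ICMs of the Oct4 line (4.09 CPM), and Ccn2 and Csrnp1 are lower in MWT than in Ctrl early ICMs of both lines.

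In the Sox2 line the maternal deletion removes Sox2, and the same comparison of early ICMs could be made. There 359 genes (2.58%) were called between Ctrl and MWT early ICMs, and 108 (0.776%) differed between the lines. Of the 26 genes higher in the Oct4 line 22 were positive in the Sox2 line and 7 called (Ccn2, Ccn1, Gm16973, Zfp599, Csrnp1, Cdkn2aip and Sertad1). Ccn2 rose by 1.54 ± 0.37 there (adjusted p = 0.00371), Zfp599 by 1.62 ± 0.26 (adjusted p = 8.62e-06) and Csrnp1 by 1.30 ± 0.22 (adjusted p = 1.49e-05). Of the 26 higher genes 5 differed between the lines: Amotl2 by 3.55, Cchcr1 by 3.10, Epb41l5 by 2.49 (adjusted p = 0.000283), Tmem38b by 1.42 (adjusted p = 0.013) and Rpia by 1.58 (adjusted p = 0.0311). Of the 26 lower genes 13 were negative in the Sox2 line and 0 called, and Gm37214, Mpv17l and Rmi2 differed between the lines. Pou5f1 itself was lower in Sox2-line Ctrl than MWT early ICMs, by -1.01 ± 0.22 (adjusted p = 0.00105), and its difference between the lines was 1.39 (adjusted p = 0.0108).

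The KO early ICMs, which lack both maternal and zygotic Oct4, were compared with the same Ctrl embryos and cannot be taken as a further test, so the values are set side by side. Ccn2 was 2.46 higher in Ctrl than in MWT and moved by -1.87 from Ctrl to KO (adjusted p = 1.88e-05), with means of 65.0, 353 and 91.5 CPM in MWT, Ctrl and KO embryos. Sap30 was 1.30 higher in Ctrl than in MWT and moved by -4.34 from Ctrl to KO (adjusted p = 3.42e-17). Amotl2 was 4.10 higher in Ctrl and had a KO minus Ctrl difference of 0.30 (adjusted p = 0.597). Rmi2 was -1.22 in Ctrl against MWT and moved by 1.11 from Ctrl to KO (adjusted p = 0.000343), with a KO mean of 95.6 CPM. The KO minus MWT difference, which uses the same MWT embryos, was 0.59 for Ccn2 (adjusted p = 0.389) and -3.05 for Sap30 (adjusted p = 9.91e-08). It was 4.40 for Amotl2 (adjusted p = 2.2e-09) and -0.11 for Rmi2 (adjusted p = 0.846). These genes are examples, and the other called genes were not counted here.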

How the data were processed

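RNA of single embryos was sequenced from the 3′ end with unique molecular identifiers (UMIs). According to the methods, the authors used UMI-tools, Cutadapt, TopHat2 (mm10, GENCODE transcripts), featureCounts and TRUmiCount in turn; whether strand was used is not stated. The deposited table used here holds these counts, whole UMIs for 29022 genes and 123 embryos and are not normalized. An alternative used the deposited rlog values, on a log2 scale, which the authors computed with DESeq2 for 15747 genes.

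The 13923 genes with a UMI in a share of 0.5 or more of the embryos at any stage were fitted with edgeR 4.0.16 in R 4.3.3 by the quasi-likelihood test, with TMM scaling, 16 groups and no covariate. A gene was called at a Benjamini-Hochberg adjusted p under 0.05, over all genes tested, with a log2 fold change of 1 or more in size. Fold changes are TMM-scaled, whereas CPM (UMIs per 1000000) divides UMIs by the library's total; SE is the absolute log2 fold change divided by the square root of F. Adjusted p values are edgeR's where no tool is named. Differences between stages and lines are contrasts in the same fit. Scripts were tested on simulated data.

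Depth ran from 525755 to 1344035 UMIs over the series; intervals and the floor of 3 UMIs cover counting error only. Replicates are separate embryos, and 38 pairs within the groups had a chi-square per gene of at least 3.21, so no library appears entered again. Whether embryos shared a mother is not stated. The spread was alike, with a median SD of 0.294 on the log2 scale over 6120 genes in both groups.

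The members and the gene lists were chosen with earlier results of these data known, and 4 lists after the calls were seen. Named genes are Pou5f1, Sox2 and the called members of lists made before the calls were seen. Up to 6 of the most abundant members of 5 lists were added. So were up to 12 called genes of largest change per direction. These had 20 CPM or more and all MWT embryos on 1 side of the Ctrl median. Predicted genes were passed over, and free places were filled with the lowest p values. Other names were chosen after their values were seen. Promoters are from RefSeq. Alternatives were other scalings, filters, samples, covariates and tools (limma 3.58.1, DESeq2 1.42.0) and leaving out each embryo.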

Additional observations from a re-analysis of the deposited data

Results flagged for a closer look

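Single embryos stood apart from the others of their group in 13 of 162 gene-and-group or library values tested (8.02%), by a 95% critical value, which is set so that chance gives about 1 in 20; no explanation was tested. Ctrl 9 was highest in the summed trophectoderm markers (2558 CPM, next 1486), in Krt18 (468 CPM, next 119), a keratin of trophectoderm, in Mgst3 (41.6, next 19.1) and in the oocyte gene Ooep (172, next 91.2), and its early-to-late score was -0.543 (next -1.37). Ctrl 4 was highest for Klf4 (1073 CPM, next 652) and was the 1 Ctrl embryo with any Osm (1.19 CPM, the others 0). Ctrl 8 was highest for Plk2 (90.7 CPM, next 46.2). Among MWT embryos, MWT 3 was highest for Dusp6 (20.2 CPM, next 6.47), MWT 7 for the endoderm factor Sox17 (44.3, next 10.0) and for Oas1e (13.9, next 4.75), MWT 8 for Osm (7.80, next 2.85), and MWT 1 was the 1 MWT embryo with a UMI of Psors1c2 (1.11 CPM).

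Of the named genes that were called in early ICMs, 11 had a Ctrl minus MWT difference that was not the same in early ICMs as in morulae, by the contrast of both. The log2 difference of early ICM minus morula was 4.06 for Amotl2 (adjusted p = 0.000159), 2.64 for Ccn2 (0.0194), 1.92 for Ppm1k (0.0102), 1.84 for Zfp599 (0.00027), 1.74 for Lats2 (0.0154), 1.66 for Csrnp1 (0.00103) and 1.56 for Epb41l5 (0.0426). It was -2.15 for Rmi2 (0.000307), -2.10 for Slfn5 (0.00103), -1.88 for Mettl7a3 (0.00351) and -1.77 for Cyp2e1 (0.0267). These values are edgeR adjusted p. Between the lines, again among the named genes called in early ICMs, the difference of Oct4 minus Sox2 was 3.55 for Amotl2 (0.00248), 3.10 for Cchcr1 (2.35e-05), 2.49 for Epb41l5 (0.000283), 1.42 for Tmem38b (0.013) and -1.99 for Rmi2 (0.00279).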

How the results depend on the processing

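None of the 22 named called genes changed direction under the alternatives run, whereas named genes that were not called, such as Cdx2, did; the other called genes were not followed singly. The 52 genes called became 29 with limma on the authors' rlog values, 24 with all libraries thinned, 89 with no fold minimum, 29 without Ctrl 9 and MWT 1 together (chosen after seeing the data) and 23 to 71 leaving out each embryo; DESeq2 size factors, total scaling, both other filters, fewer samples, both covariates, limma-trend and DESeq2 gave 37 to 71. The 26 lower genes became 15 in the early ICMs alone, 17 in the Oct4 line alone, 14 with limma-trend and 40 with DESeq2, against 23, 20, 23 and 31 for the 26 higher genes. The 83 genes that differed from morulae became 55 when thinned and 62 to 106 leaving out each embryo, and the 108 that differed from the Sox2 line 71 to 128, lowest without MWT 3. The 1 gene that differed from late ICMs became 10 without the filter, 0 in the Oct4 line alone, when thinned, with depth as covariate or without Ctrl 9 and MWT 1, 2 with sex as covariate, 3 with limma-trend, 5 with limma on rlog values, 17 with DESeq2 and 0 to 2 leaving out each embryo. The Pou5f1 difference ran from 0.196 to 0.566, total UMIs from -130284 to -70017.5, genes detected from -652.1 to -542.2 and percent mitochondrial from -0.489 to 0.125 leaving out each embryo. The causes were not tested.

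Amotl2, Cchcr1, Ccn2 and Zfp599 were called under all 28 alternatives, Csrnp1 and Ppm1k under 27 each. The replicate numbers did not pair the embryos: same-numbered deviations correlated between -0.295 and 0.129, and no MWT embryo correlated best with the Ctrl embryo of its own number. On the 10 embryos with shared numbers, 7 genes were called with the replicate block (5 of the 52) and 11 without it (10 of the 52), and the Pou5f1 difference was 0.54 with the block. With 1 UMI near 1 CPM, changes in genes of a few CPM are limited by depth.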
